A study of Mus musculus with 6 samples.

Results

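The regulators described here are 9 transcription factors and nuclear receptors with known roles in the mammary gland, namely Esr1, Pgr, Nr3c1, Gata3, Foxa1, Sox9, Sox10, Trp63 and Id4. They were chosen by name from the 43548 genes of the table, and each of the 9 symbols belonged to 1 gene. The mRNA was that of Met-1 TripZ-200c cells, a mouse mammary carcinoma line of FVB/nJ strain background that was derived from a late MMTV-PyMT tumor, in which the mouse mammary tumor virus promoter drives the polyoma middle T antigen. The cells carry an inducible lentiviral vector with an RFP tag and the precursor of miR-200c, which is expressed when doxycycline (Dox) is present, and both groups carry the vector. The line is a single clone that had been sorted for low leakiness without Dox and for intermediate RFP with it. Cells were grown attached in medium with fetal bovine serum, either with vehicle (3 libraries) or with 1 µg/mL Dox (3 libraries), for 48 h. The labels name no added hormone. No library of cells with the empty vector was analysed here, so an effect of Dox itself and an effect of miR-200c cannot be told apart.

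The mammary gland holds an inner luminal layer, whose cells sense hormones or make milk, and an outer basal layer of contractile myoepithelial cells. The estrogen receptor Esr1 and its target, the progesterone receptor Pgr, act in hormone-sensing luminal cells, where the pioneer factor Foxa1 opens chromatin and Gata3 maintains luminal identity. Nr3c1 encodes the glucocorticoid receptor, which is present in most cell types and takes part in lactation. Sox9 marks luminal progenitors, Sox10 marks stem-like and neural crest-like states, Trp63 encodes the basal master regulator p63, and Id4 encodes an inhibitor of DNA binding that is typical of basal cells. MiR-200c is known as a repressor of the mesenchymal factors Zeb1 and Zeb2, which themselves hold epithelial genes down by binding E-boxes in their promoters.

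A microRNA recognises its targets mostly through bases 2 to 8 of its own sequence, the seed. The mature strand of the induced microRNA is printed with its seed in capitals (RefSeq, GRCm38.p6, chr6:124718324-124718346, minus strand), followed by the 3′ UTR stretches of Trp63 and Pgr that hold the complement of that seed, CAGTATT, again in capitals. They are shown because miR-200c is what Dox induces in these cells and because the letters of its seed were looked for in all 9 regulators.
mmu-miR-200c-3p: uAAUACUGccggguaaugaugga
Trp63 3′ UTR: tgggaaagcatgcaaCAGTATTc
Pgr 3′ UTR: aagagatgtcatgccCAGTATTg
The Trp63 stretch lies at GRCm38 chr16:25890860-25890882 (plus strand), and the Pgr stretch at chr9:8968445-8968467 (plus strand). In the coding transcript with the longest annotated 3′ UTR of each gene, Nr3c1 held 3 matches, Trp63 and Pgr held 1 each, and the other 6 regulators held 0. Of the 10798 genes whose mean reached 1 FPKM and whose 3′ UTR is annotated, 16.1% held a match. Their median 3′ UTR was 1201 bases, against 3937 for Nr3c1, 3473 for Pgr and 3064 for Trp63. Esr1, at 4191 bases, and Id4, at 3093, held 0. A longer stretch has more places for a match, and the share was not matched for length. A match is a description of the letters on the strand of the mRNA and was not tested as a site.

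FPKM, the unit of all levels given here, counts fragments per kilobase of transcript, divided also by the library's number of mapped reads, so levels can be set side by side between genes as well as between libraries. The smallest steps of the FPKM values gave an estimated 10800000 to 17500000 reads per library. The log2(FPKM + 0.1) values of 2 libraries of 1 group correlated across genes, which are not independent replicates, at r = 0.964 to 0.979, and those of different groups at r = 0.958 to 0.970. As a check of the labels, Zeb1 was at 41.0, 42.1 and 42.3 FPKM without Dox against 19.8, 20.3 and 23.6 with Dox, and it fell by 0.98 on the log2 scale. The miR-200c gene itself, Mir200c, is listed at 0 in all 6 libraries, and the vector's microRNA is not measured by these values. A listed 0 need not mean absence, since mt-Co1, a mitochondrial gene that every cell transcribes, is also listed at 0 in all 6 libraries.

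The 9 regulators covered a wide range of levels. Sox9, Gata3 and Nr3c1 were abundant, Esr1 was intermediate, Trp63 and Foxa1 were low, Sox10 was at the level of single reads, and Pgr and Id4 are listed at 0 in every library. The mean over all libraries was 106 FPKM for Sox9, 87.3 for Gata3, 66.8 for Nr3c1, 15.6 for Esr1, 1.74 for Trp63, 0.786 for Foxa1 and 0.0311 for Sox10. Among the 12879 genes whose mean reached 1 FPKM, Sox9 stood at the 87.9th percentile of level, Gata3 at the 84.6th, Nr3c1 at the 79.6th, Esr1 at the 39.5th and Trp63 at the 5.8th. Among the regulators above 0 in any library, this order was the same in both groups, and within each group the ranges of neighbouring genes in it did not overlap. With Dox, Sox10 was listed at 0 like Pgr and Id4.

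**Figure D1:**
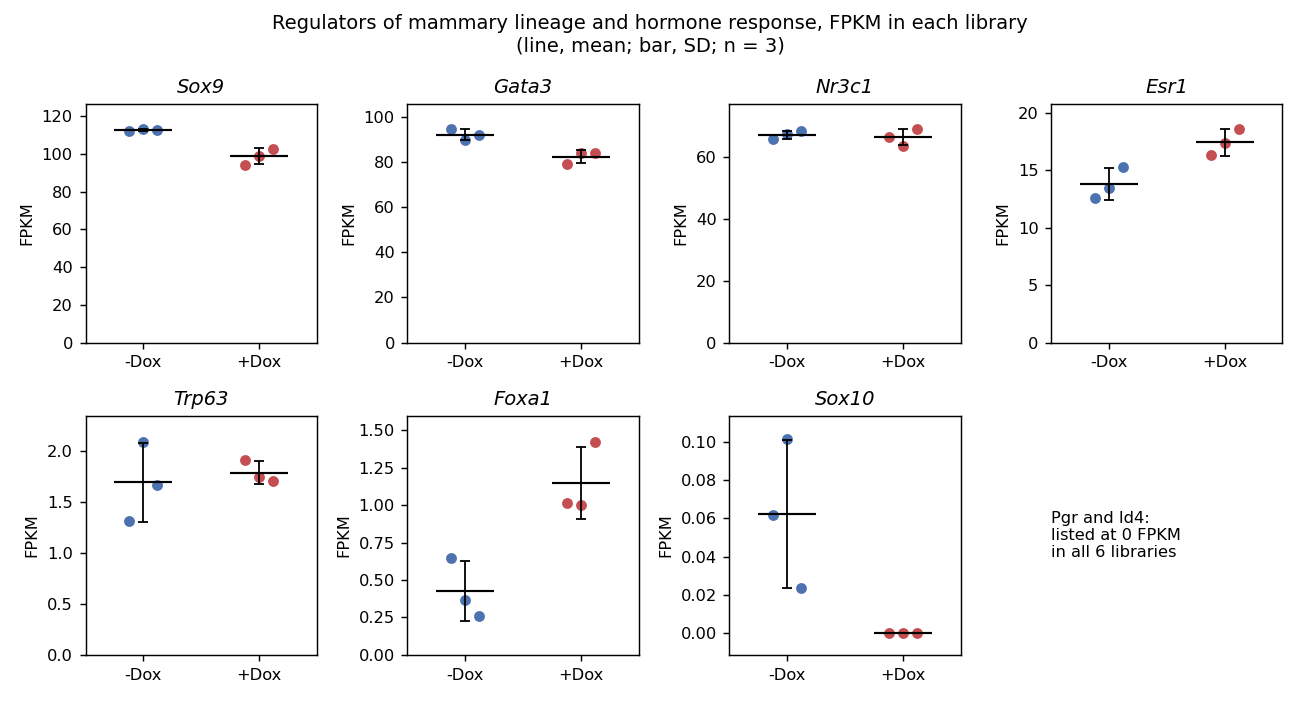
FPKM (linear axis, a separate scale for each gene) of the 7 regulators above 0, with 1 point per library, the line at the mean and the bar at 1 SD of the 3 libraries without Dox (blue) or with Dox (red). The groups are apart for Sox9, Gata3, Esr1, Foxa1 and Sox10 and overlap for Nr3c1 and Trp63.

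With Dox, 2 of the 9 regulators passed the test, Gata3 and Sox9, which fell by 0.16 and 0.19 on the log2 scale. Esr1 and Foxa1 were higher in every library with Dox than in any without, but neither passed. Nr3c1 and Trp63 overlapped between the groups. The test was limma on log2(FPKM + 0.1) with Benjamini-Hochberg adjustment over all genes tested and a threshold of 0.05. It called 15.0% of the 12879 genes whose mean reached 1 FPKM, 7.06% as higher and 7.97% as lower with Dox, and 7.84% of the 20513 genes above 0 in any library when no filter on low values was used. The 5 regulators above this filter (Sox9, Gata3, Nr3c1, Esr1 and Trp63) were tested in the former fit. Of these 5, Sox9, Gata3 and Esr1 did not overlap between the groups, against 35.0% of all genes above the filter. Foxa1 and Sox10 lay under the filter and were taken from the fit without it. An unadjusted p under 0.05 by limma was reached by 5 of the 9 regulators. They were Sox9, Gata3 and Esr1 above the filter, and Foxa1 and Sox10 in the fit without it. At that unadjusted p, 1873 of the 12879 genes above the filter were higher with Dox and 1888 lower. For Foxa1 and Sox10 no such share was counted in the fit without the filter, nor the share of its genes whose groups do not overlap. Sox10 rests on single reads. In bulk samples, fewer cells of a type and less RNA per cell cannot be told apart.

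Among the luminal regulators, Gata3 (ENSMUSG00000015619, GRCm38 chr2:9857078-9890034, minus strand) encodes a zinc finger factor that luminal cells need for their differentiation. It stood at 94.6, 89.8 and 92.2 FPKM without Dox against 79.3, 84.0 and 84.1 with Dox. All libraries with Dox were below all libraries without. The mean fell from 92.2 ± 2.38 to 82.5 ± 2.72 FPKM (SD, n = 3), a log2 fold change of -0.16 (SE 0.0413, 95% interval -0.26 to -0.06, adjusted p = 0.0420 by limma). This call was lost when any 1 of the 6 libraries was left out, with adjusted p from 0.0682 to 0.112, and without the filter on low values, at 0.0552. Gata3 overlaps 9230102O04Rik on its own strand, at 3.12 to 4.37 FPKM, and 4930412O13Rik on the other strand, at 6.83 to 11.4 FPKM.

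Foxa1 (ENSMUSG00000035451, chr12:57540628-57546916, minus strand), which opens chromatin for the estrogen receptor, was at 0.649, 0.368 and 0.259 FPKM without Dox against 1.02, 0.997 and 1.42 with Dox. Every library with Dox was above every library without, and the means were 0.425 ± 0.201 and 1.15 ± 0.241 FPKM (SD, n = 3). The log2 fold change was 1.30 (SE 0.374, 95% interval 0.39 to 2.21), and the adjusted p by limma without the filter was 0.105. It did not pass in any of the 15 alternative settings, in which the adjusted p ran from 0.0606 to 0.257. These levels rest on few reads, about 24, 13 and 13 without Dox and 37, 56 and 60 with Dox, and with a pseudocount of 1 the fold change was 0.59.

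Promoter windows of RefSeq, from 250 bases before to 50 bases after a gene's start, were searched on both strands for the E-box CACCTG, the kind of element that Zeb1 and Zeb2 bind. The windows of Foxa1 and Pgr held 1 each, read as CAGGTG on the strand of the gene, and those of Esr1, Gata3 and Id4 held 0. Of all 32851 windows in the table, 20.2% held this E-box. The stretches around both matches are shown, with the match in capitals, because Foxa1 had the largest fitted change of the regulators above single reads and because Pgr is listed at 0.
Foxa1 promoter: gcggccgcctcaCAGGTGcacctcgggctt
Pgr promoter: catctgatattcCAGGTGgaatcagactag
The Foxa1 match lies 23 bases before the RefSeq start (GRCm38.p6, stretch at chr12:57546117-57546146, minus strand), inside an exon of the longest annotated transcript and in an intron of another. The Pgr match lies 130 bases before the start (stretch at chr9:8899691-8899720, plus strand), outside the annotated transcripts. No binding was measured, and the windows of the other 4 regulators were not searched.

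Esr1 (ENSMUSG00000019768, chr10:4611593-5005614, plus strand), the estrogen receptor alpha, was at 12.6, 13.5 and 15.3 FPKM without Dox. With Dox it was at 16.3, 17.4 and 18.6 FPKM. The lowest library with Dox was above the highest without. The means were 13.8 ± 1.37 and 17.4 ± 1.14 FPKM (SD, n = 3), and the log2 fold change was 0.34 (SE 0.0919, 95% interval 0.12 to 0.55). Its adjusted p by limma, 0.0509, missed the threshold by a small margin. It passed as higher in 5 of 15 alternative settings, among them a minimum mean of 5 FPKM (0.0448) and the omission of replicate 3 without Dox (0.0383), and without replicate 3 with Dox it was at 0.158. The paper, citing earlier work, describes Met-1 cells as negative for the estrogen and progesterone receptors and as a model of disease without the estrogen receptor. The values here are of mRNA, and receptor protein was not measured.

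Pgr (ENSMUSG00000031870, chr9:8899833-8968611, plus strand), a classical estrogen target and the receptor for progesterone, is listed at 0 FPKM in each of the 3 libraries without Dox and each of the 3 with Dox. Id4 (ENSMUSG00000021379, chr13:48261228-48266026, plus strand), which opposes the activity of basic helix-loop-helix factors, is likewise listed at 0 in all 6. Neither could be tested, and no fold is given. Among other steroid receptors, Esr2 is also listed at 0 in all 6 libraries, and Nr3c2, the mineralocorticoid receptor, was between 0 and 0.0233 FPKM.

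Sox9 (ENSMUSG00000000567, chr11:112782224-112787760, plus strand), a factor of luminal progenitors, was the most abundant of the 9. It was tight without Dox, at 112, 113 and 113 FPKM, and lower with Dox, at 94.5, 99.0 and 103. The groups did not overlap, and the spread was wider with Dox. The mean fell from 113 ± 0.481 to 98.8 ± 4.19 FPKM (SD, n = 3), with a log2 fold change of -0.19 (SE 0.0404, 95% interval -0.29 to -0.10, adjusted p = 0.0211 by limma). The call held in 8 of 15 alternative settings. It was kept when replicate 3 with Dox was left out (0.0304). It was lost when replicate 1, 2 or 3 without Dox was left out (0.0555, 0.0654 and 0.0610), and when replicate 1 or 2 with Dox was left out (0.0536 and 0.0621).

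Sox10 (ENSMUSG00000033006, chr15:79154908-79165240, minus strand), known from neural crest and from stem-like mammary cells, was at 0.0618, 0.101 and 0.0237 FPKM without Dox and is listed at 0 in all 3 libraries with Dox. The former values stand for about 2, 3 and 1 reads. Both groups are thus at or under 3 reads per library, no fold is given, and the adjusted p without the filter was 0.164. The Schwann cell markers, with which Sox10 is often found, were low as well, with a summed level of 5 genes from 1.86 to 2.29 FPKM without Dox and from 1.62 to 2.07 with Dox.

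Trp63 (ENSMUSG00000022510, chr16:25683763-25892102, plus strand), which encodes p63, was at 1.31, 2.09 and 1.67 FPKM without Dox against 1.91, 1.75 and 1.71 with Dox. The libraries with Dox lay inside the range of those without. The log2 fold change was 0.10 (SE 0.244, 95% interval -0.48 to 0.67, adjusted p = 0.833), and it ran from -0.06 to 0.25 as single libraries were left out. The interval includes the fitted change of Esr1, 0.34, so a change of that size is not excluded. Its 3′ UTR holds the seed match printed above, and the values give no test of that match.

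Nr3c1 (ENSMUSG00000024431), the receptor for glucocorticoids, was at 65.8, 67.3 and 68.4 FPKM without Dox against 66.5, 63.7 and 68.9 with Dox. The groups overlapped, with means of 67.1 ± 1.32 and 66.4 ± 2.63 FPKM (SD, n = 3). The log2 fold change was -0.02 (SE 0.0440, 95% interval -0.12 to 0.09, adjusted p = 0.837). Its fitted change ran from -0.04 to 0.01 over the alternative settings, and 7.44% of the genes tested had a fitted change as small or smaller. The 3′ UTR of Nr3c1 holds 3 seed matches, the most among the 9 regulators, and the values give no test of those matches.

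**Figure D2:**
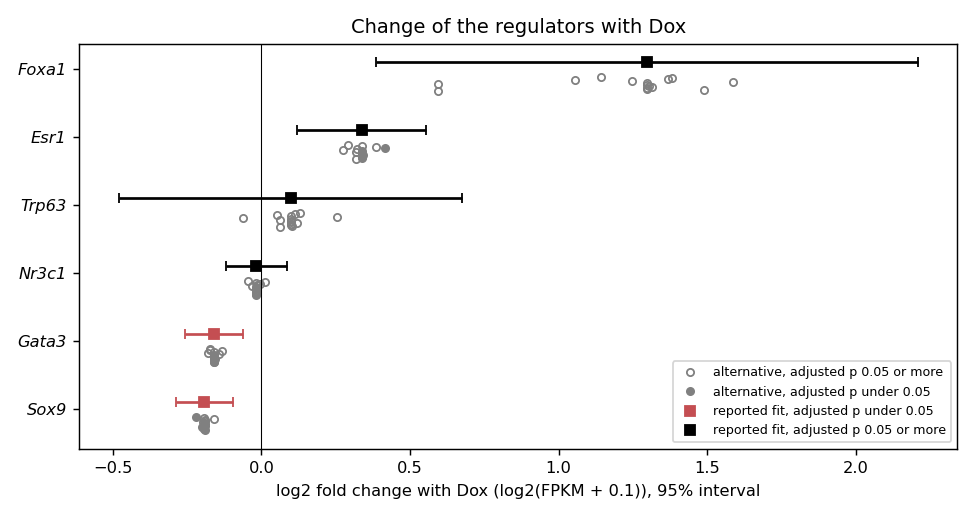
Log2 fold change with Dox on the log2(FPKM + 0.1) scale (x axis) of the 6 regulators with a fold, with squares for the fit reported and bars for its 95% interval. Small circles are the alternative settings, filled where the adjusted p was under 0.05. Only Gata3 and Sox9 are past the threshold in the fit reported (red), Esr1 is past it in 5 alternatives and Foxa1 in 0.

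The receptors were next set beside the rest of their family. Of 31 other nuclear receptors listed, 3 are at 0 in all libraries (Esr2, Rxrg and Ppara), 6 were under a mean of 1 FPKM and 22 were tested. With Dox 3 rose and 1 fell, 18.2% of those tested against 15.0% of all genes. Vdr, the vitamin D receptor, was at 17.7, 16.9 and 17.5 FPKM without Dox against 35.9, 35.9 and 32.7 with Dox. It rose by 1.00 on the log2 scale (SE 0.0593, adjusted p = 0.000141) and passed in all 15 alternative settings. Nr1h3, the liver X receptor alpha that senses oxysterols, rose from 4.71 to 6.99 FPKM (log2 fold change 0.56, adjusted p = 0.0201, passed in 10 of 15 alternatives).

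The other calls in this family were close to the threshold. Nr2f2, an orphan receptor also known as COUP-TFII, rose by 0.21 on the log2 scale (adjusted p = 0.0469), and Rara, a retinoic acid receptor, fell by 0.27 (adjusted p = 0.0476), and each passed in 4 of 15 alternative settings. In place of 4, the family had 1 call when replicate 1 or 2 of either group was left out, 2 when replicate 3 with Dox was left out and 3 when replicate 3 without Dox was left out. The most abundant members besides Nr3c1 did not pass, with Rarg at means of 74.7 and 75.9 FPKM, Nr2f6 at 55.5 and 59.1, and Ppard at 50.5 and 53.2. Esr1 ranked low among the receptors above the filter, and its level without Dox was near those of Nr4a2 and Nr2c1, with which its range overlapped.

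**Figure D3:**
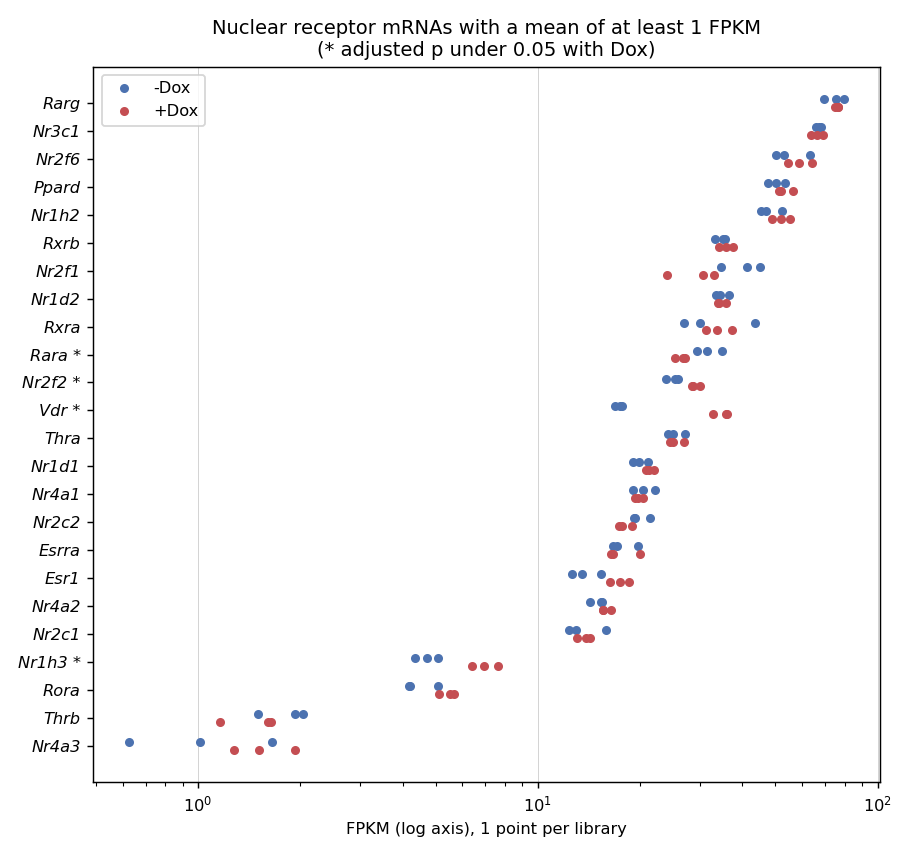
FPKM (log axis) of Esr1, Nr3c1 and the 22 other listed nuclear receptor genes whose mean reached 1 FPKM, ordered by mean, with 1 point per library (blue without Dox, red with Dox) and an asterisk where the adjusted p was under 0.05. Vdr shows the widest gap between the groups, while Nr3c1 overlaps and Esr1 is apart without passing.

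Steroid receptors are held ready for hormone by the Hsp90 chaperone machine and act through coregulators. All 19 such genes listed were tested by limma, 4 rose and 0 fell (21.1% against 15.0% of all genes, median log2 fold change 0.03 against 0.0039). At an unadjusted p under 0.05, 7 were higher and 0 lower, against 1873 and 1888 of the 12879 genes tested. Hsp90ab1, the constitutive form of the chaperone, was at 1843, 1851 and 1886 FPKM without Dox against 2054, 2105 and 2040 with Dox, a log2 fold change of 0.15 (adjusted p = 0.00524). It passed in 13 of 15 alternative settings, and with quantile normalization its change was 0.07 (adjusted p = 0.433). The inducible Hsp90aa1 rose by 0.15 (adjusted p = 0.0299, passed in 6 of 15 alternatives), although 68.7% of its longest transcript is shared with the sequence of Gm12346 so that its reads are uncertain. The co-chaperone Fkbp4, which promotes receptor transport, rose from 195 to 221 FPKM (0.18, adjusted p = 0.0119), and the arginine methyltransferase Carm1 from 93.6 to 104 FPKM (0.15, adjusted p = 0.0339, passed in 8 of 15 alternatives), with 21.9% of its sequence shared with Yipf2. With limma without the trend the adjusted p of the 4 ran from 0.0511 to 0.116, and 2 passed when replicate 2 or 3 without Dox or replicate 1 or 2 with Dox was left out. Hspa8, with 64.7% of its sequence shared, did not pass (1589 and 1659 FPKM, adjusted p = 0.0998).

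Genes that glucocorticoids are known to induce moved in both directions. Of 17 listed, 14 were tested, 3 rose and 4 fell (7 of 14, against 15.0% of all genes), with a median log2 fold change of -0.0024. Among the 7 that did not pass, Fkbp5 was at means of 24.9 and 24.5 FPKM, Tsc22d3 at 21.9 and 20.6, Per1 at 11.97 and 12.4 and Sgk1 at 188 and 191. Those that rose were Lcn2, an iron-carrier protein of innate defence (216 to 310 FPKM, log2 fold change 0.52, adjusted p = 0.000807), Zfp36, which destabilises cytokine mRNAs (12.6 to 17.6, 0.48, passed in 10 of 15 alternatives), and Nfkbia, the inhibitor of NF-kappa B (51.0 to 64.4, 0.33). Those that fell were the metallothionein genes Mt1 (190 to 128 FPKM, -0.56, adjusted p = 0.00138) and Mt2 (29.6 to 17.4, -0.79, adjusted p = 0.0427), the Kruppel-like factor gene Klf9 (21.02 to 15.7, -0.42) and Errfi1, a feedback inhibitor of the EGF receptor (105 to 83.3, -0.33). Mt2 shares 69.5% of its sequence with Gm45774 and passed in 7 of 15 alternative settings. Cebpd, among the most abundant of the list, did not pass (183 and 195 FPKM).

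Genes that estrogen is known to induce were lower or did not pass. Of 15 listed, 2 are at 0 in all libraries, 8 were tested by limma, 0 rose and 5 fell (62.5% against 15.0% of all genes), with a median log2 fold change of -0.15. The counts at an unadjusted p under 0.05 were likewise 0 and 5, against 1873 higher and 1888 lower of the 12879 genes tested. Greb1, a cofactor of the estrogen receptor and a standard reporter of it, was at 2.12, 2.09 and 1.72 FPKM without Dox against 0.611, 0.370 and 0.739 with Dox. All libraries with Dox were below all without (log2 fold change -1.66, adjusted p = 0.0200). Its mean over all libraries reached 1 FPKM only through those without Dox. Its change was -0.92 with a pseudocount of 1, and it passed in 11 of 14 alternative settings, being lost without replicate 1 or 2 without Dox (0.0595 and 0.0698) and with the replicate block (0.0595). Bcl2, which blocks apoptosis, fell from 16.9 to 13.7 FPKM (-0.30, adjusted p = 0.0189, passed in 8 of 15 alternatives), and Areg, an EGF receptor ligand of the mammary duct, from 57.0 to 49.6 (-0.20, adjusted p = 0.0392, passed in 5 of 15). Ccnd1, which encodes cyclin D1 and was the most abundant gene of the list, fell from 1175 to 1050 FPKM (-0.16, adjusted p = 0.00406), and the protease gene Ctsd from 490 to 443 (-0.15, adjusted p = 0.0211, passed in 7 of 15 alternatives). Ccnd1 and Ctsd share 29.5% and 38.0% of their sequence with overlapping or similar genes. Myc did not pass (118 and 127 FPKM). In place of 5, the list had 1 call when replicate 1 or 2 without Dox was left out, 2 when replicate 3 without Dox or replicate 1 or 3 with Dox was left out, and 3 when replicate 2 with Dox was left out. The fitted change of Esr1 was upward and those of these 5 genes downward in the same libraries, and no relation between them was tested.

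**Figure D4:**
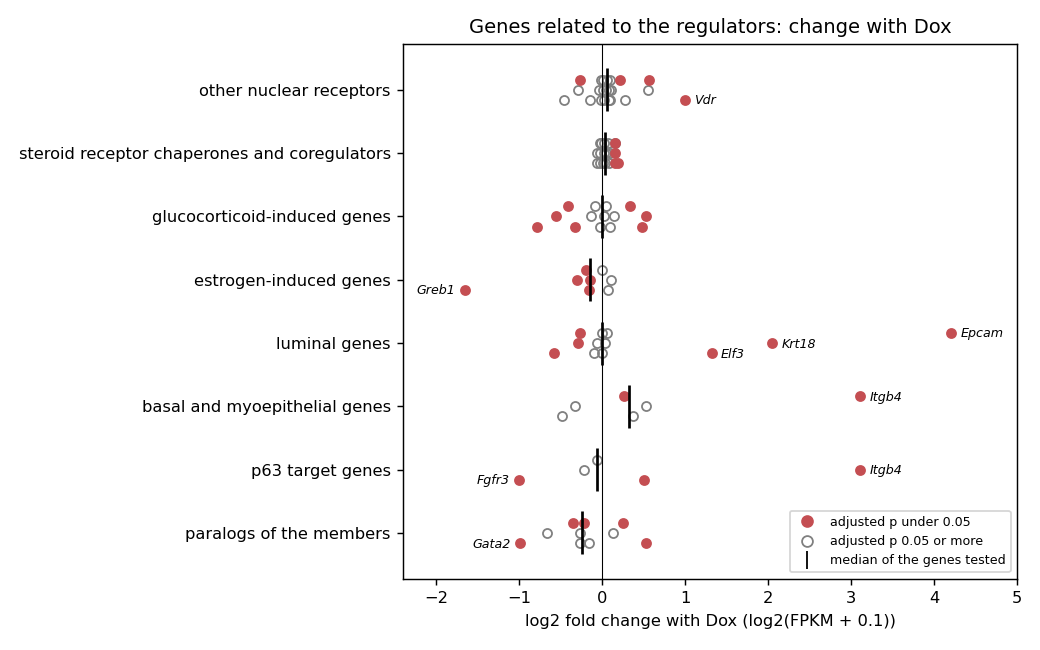
Log2 fold change with Dox on the log2(FPKM + 0.1) scale (x axis) of the tested genes of 8 lists related to the regulators, with 1 point per gene, filled red where the adjusted p was under 0.05, and a bar at each list's median. Names are given for changes beyond 0.9, such as Epcam at 4.20, Itgb4 at 3.11 and Greb1 at -1.66, and the chaperone and coregulator genes are the most closely packed around 0.

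The labelled cell type was checked with keratins and other lineage genes. Of 29 luminal genes, 9 are listed at 0 in all libraries (Krt19, Elf5, Lalba, Prlr, Kit, Tbx3, Prom1, Wap and Csn2), 8 were under the filter and 12 were tested, of which 3 rose and 3 fell (6 of 12, against 15.0% of all genes). Of 21 basal and myoepithelial genes, 5 are listed at 0 in all libraries (Krt5, Acta2, Krt15, Ngfr and Lgr5), 10 were under the filter and 6 were tested by limma, of which 2 rose and 0 fell (33.3% against 15.0% of all genes). At an unadjusted p under 0.05, 2 of the basal genes were higher and 2 lower, against 1873 and 1888 of the 12879 genes tested. Without Dox the luminal keratin gene Krt18 was at 93.2 FPKM while its partner Krt8 was at 0.262 FPKM, with 48.1% of the Krt8 sequence shared with Krt8-ps. The defining keratins of the basal layer, Krt5 and Krt14, were at 0 and at most 0.154 FPKM. Without Dox, the range of Gata3 overlapped that of Krt18 (91.2 to 96.4 FPKM), and that of Sox9 lay above it.

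Among the tested genes of these lists, Epcam, Itgb4 and Krt18 had the 3 largest fitted changes. Epcam, an epithelial adhesion molecule, was at 0.0844, 0.137 and 0.161 FPKM without Dox against 4.31, 3.88 and 3.98 with Dox (log2 fold change 4.20, adjusted p = 0.000526). Its mean over all libraries reached 1 FPKM only through those with Dox. With a pseudocount of 1 its change was 2.16, below that of Itgb4 at 2.84, and it passed in all 14 alternative settings. Krt18 rose from 93.2 to 386 FPKM (2.05, adjusted p = 3.61e-06) and Elf3, an epithelial ETS factor, from 1.45 to 3.57 (1.32, adjusted p = 0.0315, passed in 6 of 14 alternatives). Cdh1, which encodes E-cadherin and lay under the filter, rose from 0.0585 to 0.828 FPKM in the fit without it (2.49, adjusted p = 0.0125). Luminal genes also fell. Tfap2a, a transcription factor of luminal cells, went from 56.0 to 37.2 FPKM (-0.59, adjusted p = 0.000870), Mfge8, a milk fat globule protein, from 497 to 406 (-0.29, adjusted p = 0.00224), and Cd24a, a surface glycoprotein high in luminal cells, from 586 to 484 (-0.28, adjusted p = 0.00159, 11.9% of its sequence shared).

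Targets of p63 did not move as 1 group around the overlapping values of Trp63. Of 14 in the table, 5 were tested, 2 rose and 1 fell (3 of 5, against 15.0% of all genes). Itgb4, which anchors basal cells to the basement membrane and is also on the basal list, was at 3.48, 4.45 and 3.48 FPKM without Dox against 32.8, 34.97 and 32.2 with Dox (log2 fold change 3.11, adjusted p = 1.64e-05). Its partner Itga6, on the basal list, rose from 90.9 to 109 FPKM (0.27, adjusted p = 0.00309). Perp, a desmosome gene, rose from 160 to 226 FPKM (0.50, adjusted p = 0.000870), and Fgfr3, a fibroblast growth factor receptor, fell from 2.53 to 1.21 (-1.01, adjusted p = 0.0220, passed in 8 of 14 alternatives, 10.3% of its sequence shared). Dst, which encodes a hemidesmosome linker, did not pass (208 and 199 FPKM), nor did Lgr6 of the basal list (9.49 and 6.85). Fermt1, under the filter, rose in the fit without it (0.0216 to 0.327 FPKM, 1.81, adjusted p = 0.00960).

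Paralogs of the 9 regulators were compared in the same way. Of 25 listed, 7 are at 0 in all libraries and 10 were tested, of which 2 rose and 3 fell (5 of 10, against 15.0% of all genes). In place of 5, this list had 3 calls when replicate 1 or 2 without Dox or replicate 1 with Dox was left out, and 2 when replicate 3 with Dox was left out. While Id4 is listed at 0, its relatives were abundant, and they did not share a direction. Id1 was at 107, 118 and 114 FPKM without Dox against 153, 176 and 162 with Dox (log2 fold change 0.53, adjusted p = 0.00217). Id3 rose from 31.5 to 37.6 FPKM (0.25, adjusted p = 0.0118), and Id2 fell from 123.2 to 105.9 (-0.22, adjusted p = 0.0284, passed in 9 of 15 alternatives). Gata2, a relative of Gata3 known from blood cells, was at 3.18, 2.79 and 2.94 FPKM without Dox against 1.46, 1.84 and 1.09 with Dox (-1.0, adjusted p = 0.0319, passed in 6 of 14 alternatives). Sox4, a relative of Sox9 linked to mesenchymal states, fell from 74.2 to 57.8 FPKM (-0.36, adjusted p = 0.00194), with 54.6% of its sequence shared with Gm26735. Trp53, the relative of Trp63 that encodes p53, was the most abundant of the list and did not pass (220 and 241 FPKM, adjusted p = 0.110), with 20.2% of its sequence shared with Trp53-ps.

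Markers of other cell types were low, with exceptions that changed beside the regulators. Of 6 fibroblast markers, Pdgfrb fell from 32.4 to 15.5 FPKM (log2 fold change -1.06, adjusted p = 9.78e-05) and Pdgfra from 18.6 to 15.5 (-0.27, adjusted p = 0.0410, lost when any 1 library was left out), Lum is listed at 0, and the collagen genes Col1a1 and Col1a2 were under 1 FPKM. The summed level of the 6 was 50.9 to 53.3 FPKM without Dox and 30.7 to 33.0 with Dox. Of 5 adipocyte markers, Fabp4 fell from 12.7 to 6.82 FPKM (-0.91, adjusted p = 0.0177, lost when replicate 1 or 3 without Dox or replicate 3 with Dox was left out), and the defining markers Adipoq, Plin1, Lep and Cidec are listed at 0 in all libraries. No leukocyte or endothelial marker passed by limma, but only 1 of each list was above the filter. These were Cd68 (9.18 and 7.0 FPKM) and Cdh5 (4.45 and 4.15 FPKM), the highest of their lists, and neither reached an unadjusted p under 0.05 in the reported fit. The leukocyte list had 1 call in 1 of 15 alternatives, a fit with 1 library left out, and the endothelial list had 0 in all. Cd3e is listed at 0. The Schwann cell list had no gene above the filter, and Erbb3, also a receptor of luminal cells, rose in the fit without it (0.273 to 0.791 FPKM, adjusted p = 0.0448). The line is a single clone in culture, and the part of these genes in the falls of Gata3 and Sox9 was not tested.

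The genes whose pattern over the 6 libraries was most like that of each regulator were found by the root mean square difference of centred log2 values, which is 0 for an identical pattern. Sox9 was followed most closely by Zfp503, Rin1 and Afap1, at 0.00675, 0.0139 and 0.0176 log2 units. Gata3 was followed by 2610507B11Rik, Pgam1 and Ptbp2 (0.0155, 0.0177 and 0.0187), and Nr3c1 by Ckap2l, Rpl39 and Exoc5 (0.0159, 0.0171 and 0.0172). For Esr1 the nearest were the adhesion molecule gene Alcam, the cell cycle factor gene Mybl2 and Osbpl3 (0.0281, 0.0293 and 0.0300). Trp63, with its wider spread at a low level, had the most distant neighbours, Cdca7, Hspb1 and N4bp2 (0.0462, 0.0541 and 0.0559). These are descriptions over 6 libraries of 2 groups, picked from 12875 genes with a value in every library.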

How the data were processed

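The authors mapped single 50 base reads of TruSeq Stranded libraries to the mouse genome with gSNAP and deposited Cufflinks FPKM for each gene and library (versions not given in the sources used here). The labels name GRCm38.p6, and the methods name an assembly of FVB/NJ beside it. The table also holds the authors' group means, fold changes, p-values and q-values, which were not used, and 0 columns of per-sample values were left unused. Of 43611 rows, 1 was kept for each gene identifier, that of highest mean. The placeholder 999999999 stood in 6 values and was treated as missing.

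Values were turned into log2(FPKM + 0.1), and the 12879 genes whose mean reached 1 FPKM were tested by limma 3.58.1 (R 4.3.3), using lmFit and the trend option of eBayes, two-sided, with no term but the group. For genes below that mean, the model was fitted again to all 20513 genes above 0. Fold changes on this scale understate the change of low genes. The smallest p that permuting 3 against 3 libraries allows is 0.1, so none was computed. The study describes its culture work in general as separate experiments. A figure legend takes the sequenced samples from a panel that averages several experiments. It does not say whether each library came from its own experiment, and it gives that panel a longer time with Dox than 48 h. The p-values therefore measure only the spread between these samples, which may be technical. The model was tested on simulated data. Reads per library and per gene were estimated from the FPKM step of single-transcript genes, in which 88.1% to 91.9% of low values were within 0.15 of a whole number of reads, and other depth figures are unknown.

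The regulators and the lists of related genes were chosen with earlier results of these data known. Some genes of these lists are not reported here, and they were left out of the lists' counts and of the plots. From each list, the genes that passed (at most the 8 of largest change) and the 3 of highest mean were named. Genes named outside this rule (genes listed at 0, genes under the filter, Fkbp5, Tsc22d3, Per1, Nr4a2, Nr2c1, Krt8, Krt14, Cd68 and Cdh5) were chosen after their values were seen. Coordinates, transcripts and 3′ UTRs are those of GENCODE M21 (GRCm38), and microRNA and promoter sequences those of RefSeq (GRCm38.p6), in which 5 of the 9 regulators had a promoter. Shared sequence is the part of the longest transcript that matched another gene (BLAST 2.17.0, minimum 50 bases, minimum identity 95%), and of the regulators Gata3 had the most, 5.1%. Annotation and plots were made in Python 3.11.15 (matplotlib 3.10.9, pandas 2.3.3, numpy 2.4.6). Alternatives were a pseudocount of 1 or 0.01, scaling of the libraries to a common median, quantile normalization, a stricter filter (mean of 5 FPKM) or none, limma without the trend, an unmoderated linear model of log2(FPKM + 1), the replicate block, and fits with 1 library left out.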

Additional observations from a re-analysis of the deposited data

How the results depend on the processing

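Of the 9 regulators, 2 passed the threshold as reported, 1 without the filter on low values, and 0 with limma without the trend or with the unmoderated linear model on log2(FPKM + 1), in both of which 5 had an unadjusted p under 0.05. The share of all genes at that unadjusted p was not counted in these settings. In the reported fit it was reached by 1873 genes as higher and 1888 as lower, of 12879 tested. The 5 are therefore not read as a result about the regulators. With 1 library left out, 0 to 1 regulators passed. With a minimum mean of 5 FPKM, quantile normalization or scaling to the same median, 3 passed, Esr1 being the added one. Over all genes tested, 1935 passed as reported, 1048 to 1359 with 1 library left out, and 1290 to 1992 under the other alternatives. Of the listed genes, 38 passed as reported and 22 to 28 with 1 library left out. The cause of these losses was not tested, and leaving out a library leaves fewer samples. No regulator that passed as reported turned its direction under any of the 15 alternatives, and the fitted changes of Nr3c1 and Trp63, which did not pass, took either sign.

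The groups share replicate numbers. Across genes, the departures of libraries 1, 2 and 3 without Dox from the mean of their group correlated with those of their namesakes with Dox at r = 0.029, 0.036 and -0.0076, so the numbers were not taken to pair the samples. With the replicate number as a block, 2 regulators passed, Esr1 as higher (adjusted p = 0.0429 by limma) and Sox9 as lower (0.0494), while Gata3 did not (0.104), 1337 genes passed in all, and 26 listed genes passed.

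Depth limits Foxa1, Sox10 and Trp63 most. The number of reads behind Pgr and Id4, listed at 0, is not known from these values.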
